A study of Xenopus tropicalis with 39 samples.

Results

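Regions bound by Foxh1 without Vegt or Otx1 were taken from the peak lists of the 3 maternal transcription factors in early Xenopus tropicalis embryos. Members were chosen by where the deposited peaks lie. Peaks of the 3 lists that overlapped by at least 1 base were merged, and a merged region was kept when it held Foxh1 peaks and no peak of Vegt or Otx1. Of 55220 bound regions, 31682 met this rule, which is 57.4% of all bound regions and 80.9% of the 39180 regions with a Foxh1 peak. The other 7498 regions with Foxh1 held a second factor as well: 3537 held Foxh1 and Vegt, 1646 held Foxh1 and Otx1, and 2315 held all 3. Regions without Foxh1 were 14869 with Vegt only, 205 with Otx1 only and 966 with Vegt and Otx1. The word alone refers to these 3 lists, since no other factor was mapped in them.

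Foxh1 is a forkhead DNA-binding protein that is loaded into the egg and recruits the Smad proteins activated by Nodal signals to DNA. It is known for its part in turning on mesoderm and endoderm genes in the early vertebrate embryo. Vegt is a maternal T-box factor of the vegetal region, the prospective endoderm, and Otx1 is a homeodomain factor. H3K4me1 is monomethylation of lysine 4 of histone H3, a mark found at enhancers and on the flanks of active promoters.

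The series held 39 samples, of which 6 were chromatin immunoprecipitation (ChIP) samples in 3 groups of 2. Vegetal masses at stage 10.5, dissected from 100 fixed embryos, were used for H3K4me1. Whole embryos at stage 8 were used for Vegt and for Otx1. The Foxh1 list came from 2 libraries of another series, with stage 8 in its peak names, and 1 of these libraries also went into making the lists of Vegt and Otx1. Factor binding and the histone mark were therefore measured at different stages and in different tissue, and whole embryos mix vegetal with other cells. The 15925 H3K4me1 peaks have meso in their names although the labels give vegetal tissue; the labels were followed.

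Each list was deposited once as a pooled list, with 39218 peaks for Foxh1, 21711 for Vegt, 5151 for Otx1 and 15925 for H3K4me1. There were thus no replicate values of a region and no test was made. The role of the library that the Foxh1 list shares with those of Vegt and Otx1 is not stated. Whether the Foxh1 list pools replicates of Foxh1 is therefore not known. Shares are given with exact Clopper-Pearson 95% intervals, which cover counting error only and treat neighbouring regions as independent, and with their range over the 9 chromosomes that held at least 1000 regions with Foxh1. Chromosomes are not replicates. Fold enrichment is the authors' value for each peak. The Foxh1 fold is used to rank and describe peaks within the Foxh1 list and is called strength below. Folds of Vegt, Otx1 and H3K4me1 are likewise used within their own list, and folds are not comparable between lists. Depth is not given in the lists, so a region outside a list had no peak under the authors' threshold, which is not the same as no binding.

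Foxh1-only regions were narrower by median than shared ones. Under a rule of 1 base of overlap a wider peak has more room to meet another peak, so width is not independent of membership. No peaks overlap within the Foxh1 list, so by construction each of these regions is 1 peak, and no region could be named for holding the most. The median width was 288 bases (25th to 75th percentile 236 to 378), against 483 bases (380 to 628) for regions with Foxh1 and another factor, where merging adds width; the strongest Foxh1 peak of those shared regions had a median width of 441 bases. The summit of a Foxh1-only peak lay at a median of 49.5% of the peak's width. On chromosomes there were 30375 Foxh1-only regions and on unplaced scaffolds 1307. Their share of the regions with Foxh1 was 78.7% to 82.9% over the 9 chromosomes.

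Foxh1-only regions were weaker as a group than shared regions, with a wide overlap between them. The median strength was 13.5-fold in Foxh1-only regions (95% interval of the median 13.5 to 13.6) and 20.9-fold in shared regions (20.5 to 21.1). The 25th to 75th percentile ran from 11.1 to 18.0 in Foxh1-only regions and from 14.7 to 28.8 in shared regions, and the extremes were 4.31 and 52.7 in Foxh1-only regions against 6.12 and 57.5 in shared ones. The shared classes differed among themselves: the median was 16.3-fold where Foxh1 met Vegt, 24.7-fold where it met Otx1, and 26.6-fold where all 3 met. On every one of the 9 chromosomes the Foxh1-only median, 13.3 to 13.9, lay below the shared median, 20.3 to 21.3.

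When the 39180 regions with Foxh1 were ranked by strength and cut into 10 equal classes, the share with Foxh1 only fell at every step. From the weakest class upward it was 93.5%, 92.1%, 90.8%, 89.5%, 88.1%, 86.7%, 81.9%, 75.9%, 67.4% and 42.8%. The step into the strongest class was the greatest, with an interval of 41.3% to 44.4% there and 65.9% to 68.9% in the class before it. Even so, 1678 of the strongest 3918 regions had no peak in the Vegt or Otx1 list. With the stronger 50% of those 2 lists the strongest class was 65.1% Foxh1 only, and with the stronger 50% of the Foxh1 list 32.3%.

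**Figure D1:**
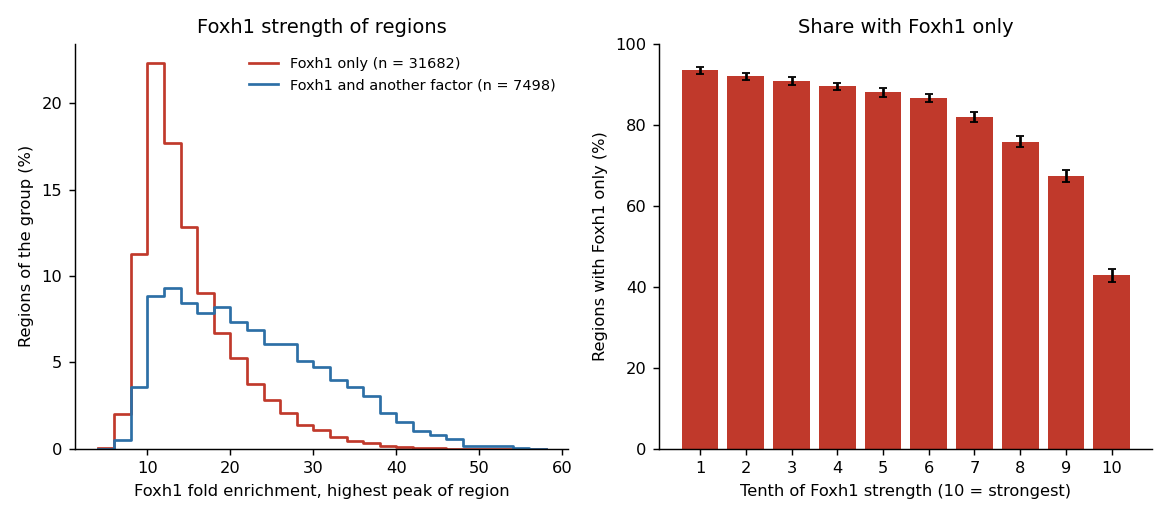
Left, percent of Foxh1-only regions and of regions with Foxh1 and another factor (y axis) in bins of the authors' Foxh1 fold enrichment (x axis). Right, percent of regions with Foxh1 that hold Foxh1 only in 10 classes of strength, with exact 95% intervals as bars. The Foxh1-only curve peaks in the bin from 10 to 12, which holds 22.3% of these regions and lies below their median of 13.5-fold, and the share falls to 42.8% in the strongest class.

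The 5 strongest Foxh1-only regions lay far from one another, but not all stood alone. In order of strength, the nearest other region with Foxh1 was 6791, 24027, 96825, 7555 and 259 bases away. None of the first 5 overlapped a H3K4me1 peak, which does not set them apart from the strongest class, where 10.2% did. Positions are those of the deposited lists, counted from 1; the sources used here name no genome build, and no gene could be assigned. The first was chr10:34147934-34149016, 1083 bases wide with a strength of 52.7, and its nearest Vegt peak was 47331 bases away. The second was chr5:24414416-24414759, with a strength of 51.02 and 122786 bases from the nearest Vegt peak. The third was chr1:15608167-15608644, with a strength of 50.6, 96171 bases from Vegt and 541661 bases from Otx1. These 3 stood far from the other factors, while the next 2 had a nearer Vegt peak. The fourth was chr2:137937994-137938606, with a strength of 50.1 and 18867 bases from Vegt. The fifth was chr1:177243454-177243885, with a strength of 48.6, 12198 bases from Vegt and 259 bases from another region with Foxh1. Their gaps to the nearest H3K4me1 peak were 52429, 55482, 246839, 6731 and 6066 bases in that order.

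The strongest Foxh1-only region that did overlap H3K4me1, looked up after the values were seen, was number 15 by strength. It was chr3:54427683-54428045, with a strength of 45.5, and it lay 742 bases from a Vegt peak. Its H3K4me1 peak ran from 54427819 to 54428692 with a fold of 2.54, so it covered the right part of the Foxh1 peak and the flank beyond. Among the strongest 100 Foxh1-only regions 9 overlapped H3K4me1 (9.0%, interval 4.20% to 16.4%), and among the strongest 500 there were 60 (12%, 9.28% to 15.2%).

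H3K4me1 overlapped 2406 of the 31682 Foxh1-only regions, which is 7.59% (7.30% to 7.89%), against a background of 8.51% over all bound regions. In shared regions the count was 1659 of 7498, or 22.1% (21.2% to 23.1%), and over all regions with Foxh1 the share was 10.4%. The share was 15.2% in regions with Foxh1 and Vegt, 21.1% with Foxh1 and Otx1 and 33.5% with all 3, and 3.40% in regions with Vegt only. Of the other classes without Foxh1, regions with Otx1 only had 19.5% (14.3% to 25.6%) and regions with Vegt and Otx1 9.32% (7.56% to 11.3%). Foxh1-only regions thus stood slightly below the share of all bound regions, of which they make up more than any other class. Their share lay above that of Vegt-only regions and below those of shared regions and of regions with Otx1 and no Foxh1. The Foxh1-only interval overlapped that of regions with Vegt and Otx1. The Foxh1-only range over the 9 chromosomes, 6.67% to 8.57%, did not overlap the shared range, 20.7% to 24.9%. With a margin of 1 kb the shares were 11.7% in Foxh1-only and 26.4% in shared regions, and with 5 kb 19.7% and 33.8%. At the Foxh1 summit itself, which has no width, they were 4.95% in Foxh1-only and 12.2% in shared regions.

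The H3K4me1 peaks at Foxh1-only regions were by median lower and wider than those at regions with Otx1 and no Foxh1. They were closer to those of the other classes. The overlapping H3K4me1 peak had a median fold of 3.17 (25th to 75th percentile 2.84 to 3.65) at Foxh1-only regions, 3.41 (2.98 to 3.97) where all 3 factors met, 4.26 (3.36 to 5.21) at 90 regions with Vegt and Otx1, and 4.16 (3.65 to 4.99) at 40 with Otx1 only. Its median width was 784 bases at Foxh1-only regions, 853 bases where all 3 factors met, 448 bases with Vegt and Otx1 and 393.5 bases with Otx1 only. Median fold and width were 3.28 and 757 bases with Foxh1 and Vegt, and 3.28 and 846 bases with Foxh1 and Otx1. With Vegt only they were 3.33 and 642 bases.

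The lower share of Foxh1-only regions was present within each of the 10 classes of strength. From the weakest class upward 7.43%, 6.13%, 6.66%, 6.67%, 7.16%, 7.69%, 8.20%, 8.95%, 8.86% and 10.2% of Foxh1-only regions overlapped H3K4me1. Shared regions of the same classes had 19.1%, 19.0%, 13.9%, 17.3%, 21.2%, 17.2%, 22.6%, 21.7%, 23.6% and 25.6%. The Foxh1-only share was 0.32 to 0.48 of the shared one, and the intervals of both did not overlap in any of the 10 classes. At the Foxh1 summit, which has no width, it was also lower in every class, but the intervals overlapped in the third weakest. There the shares were 4.33% (3.68% to 5.05%) in Foxh1-only and 7.24% (4.79% to 10.4%) in shared regions. Across the classes the Foxh1-only share of whole regions was higher at the strong end. Its interval was 6.60% to 8.33% in the weakest class and 8.78% to 11.7% in the strongest, which do not overlap. The strongest 3 classes exceeded the weakest 3 on all 9 chromosomes, at 8.33% to 11.3% against 5.22% to 8.71%.

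**Figure D2:**
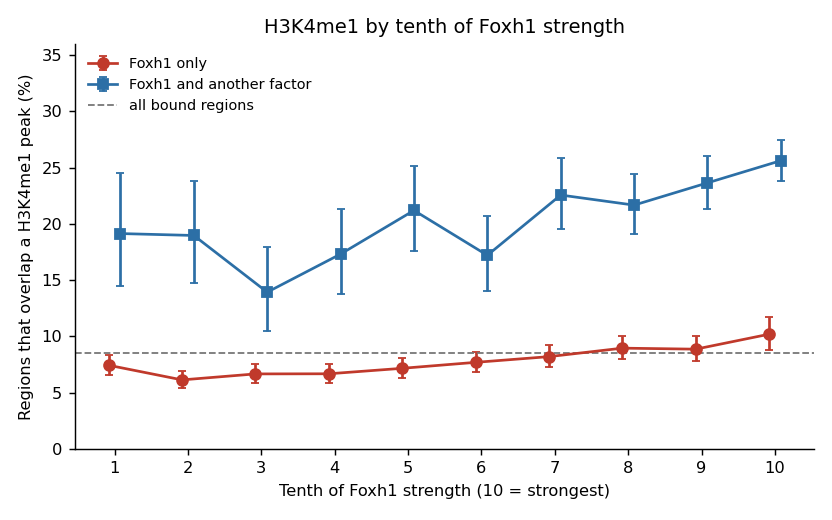
Percent of regions that overlap a H3K4me1 peak (y axis) in 10 classes of Foxh1 strength (x axis), for Foxh1-only regions and regions with Foxh1 and another factor; bars are exact 95% intervals and the dashed line is the 8.51% of all bound regions. Foxh1-only regions run between 6.13% and 10.2%, below the shared regions in every class.

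Peak width moved with strength. The median width of Foxh1-only regions was 260 bases in the weakest class and 381 bases in the strongest. Sorted into 4 equal classes by width alone, the Foxh1-only share with H3K4me1 was 3.61% in the narrowest (135 to 236 bases), then 5.98% and 8.88%, and 11.9% in the widest (378 to 2375 bases). Within a width class the strongest regions had no higher share than the weakest beyond their intervals. In the widest class it was 12.47% (10.9% to 14.1%) in the weakest 3 strength classes and 11.8% (10.7% to 13.0%) in the strongest 3. In the narrowest it was 3.71% (3.17% to 4.31%) in the weakest 3 and 4.21% (2.12% to 7.42%) in the strongest 3. At the summit the share in Foxh1-only regions was 4.78% (4.11% to 5.52%) in the weakest class of strength and 6.08% (4.98% to 7.33%) in the strongest.

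The lower H3K4me1 share of Foxh1-only regions was also present within each of 4 classes of width. Width was not matched inside a class. The widest ran from 422 to 2375 bases, with 5693 Foxh1-only and 4066 shared peaks, so a part of width in the difference was not tested. With the strongest Foxh1 peak of each region read in place of the merged region, a choice made after the data were seen, and the 39180 peaks cut into 4 classes by its width, the shares were 3.80% in Foxh1-only and 8.55% in shared regions of the narrowest class. In the next class they were 6.91% in Foxh1-only and 13.0% in shared regions, then 9.10% in Foxh1-only and 17.8% in shared regions. In the widest class they were 12.9% in Foxh1-only and 27.4% in shared regions. At the summit, which has no width, the Foxh1-only share was 2.70%, 4.44%, 5.83% and 8.26% from the narrowest class to the widest. Divided further by 3 bands of strength, Foxh1-only peaks had the lower share in 12 of 12 combinations, and the intervals did not overlap in 10 of them; at the summit the share was lower in 12 of 12, with no overlap in 6.

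**Figure D3:**
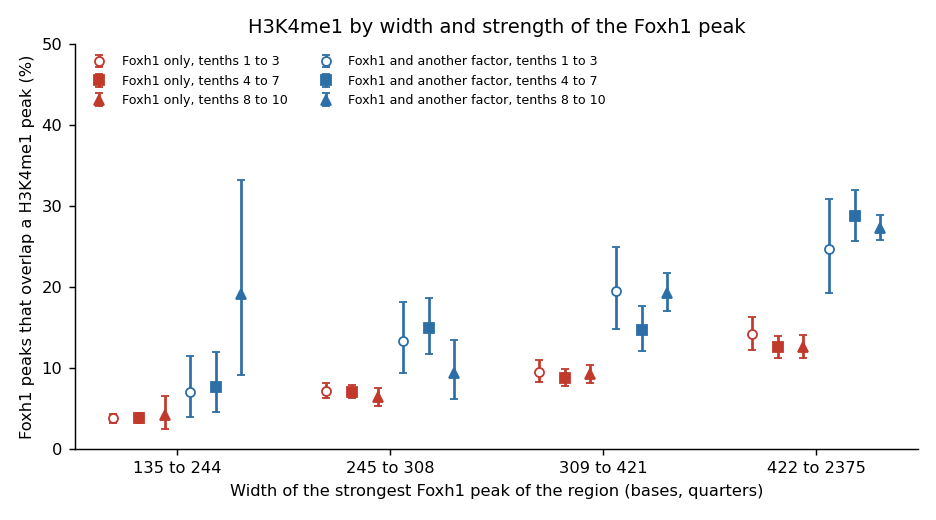
Percent of Foxh1 peaks that overlap a H3K4me1 peak (y axis) in 4 classes of peak width in bases (x axis), split by group (colour) and by band of strength from weak to strong (open circle, square, triangle), with exact 95% intervals. Within Foxh1-only peaks the points rise with width, from 3.80% to 12.9% over all strengths, and lie close together across bands of strength.

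Around the Foxh1 summit, H3K4me1 peaks were arranged with a shallow dip in the centre. Of Foxh1-only summits 4.95% lay inside a H3K4me1 peak, as did 5.71% of the positions 200 bases before and 5.63% of those 200 bases after them. At 500 bases the values were 4.38% before and 4.61% after, at 1000 bases 3.08% and 3.21%, and at 5000 bases after the summit 1.84%. The level 20 to 50 kb away was 1.11%, so the summit stood 4.47-fold above its own surroundings. Where all 3 factors met, 17.4% of summits lay inside a H3K4me1 peak, with 24.4% at 300 bases before and 24.9% at 300 bases after, over a distant level of 1.68%. Before and after follow the coordinates of the lists, not the direction of any gene.

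**Figure D4:**
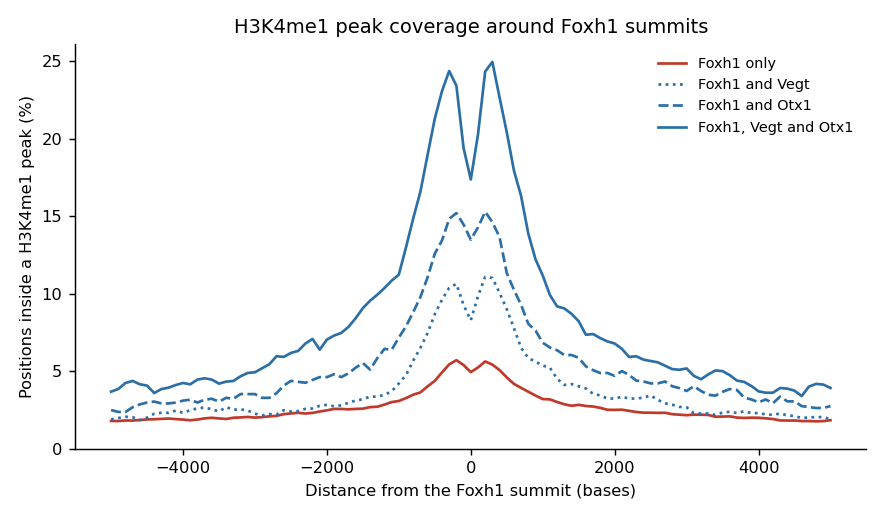
Percent of positions inside a H3K4me1 peak (y axis) by distance from the Foxh1 summit in bases (x axis), for Foxh1-only regions and the 3 shared classes. The Foxh1-only line stays under 6% and dips to 4.95% at the summit; the line of all 3 factors dips to 17.4% between shoulders of 24.4% and 24.9%.

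Foxh1-only regions were often near another region with Foxh1. The gap to the nearest one had a median of 6212 bases for Foxh1-only regions (25th to 75th percentile 1437 to 19120) and 3278 bases for shared regions (837 to 13389). Another region with Foxh1 lay within 1 kb of 19.8% of Foxh1-only regions, within 5 kb of 45.5%, within 12500 bases of 64.8% and within 50 kb of 92.2%. For shared regions these shares were 28.2%, 56.9%, 73.5% and 95.1%. Other Foxh1 summits were 3.31-fold denser at 0.5 to 1 kb from a Foxh1-only summit than at 40 to 50 kb. At 10000 to 15000 bases their density was 1.19-fold of that distant level. The shares that the number of peaks alone would give were not computed. Those within 12500 bases and 50 kb therefore do not by themselves show clustering. The median gap was 6452 bases in the weakest class of Foxh1-only strength and 3566 bases in the strongest.

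Joining Foxh1-only regions no more than 12500 bases apart gave 19660 chains. How many chains the number of peaks alone would give at this distance was not computed. Single regions made up 12963 of them, or 40.9% of all Foxh1-only regions, and 39 chains held 10 or more. The chain with the most members held 42 and spanned 118100 bases at chr6:32858973-32977072. Its members had strengths from 6.89 to 33.3 with a median of 13.6, close to the median of all Foxh1-only regions. Of the 42 members 5 overlapped a H3K4me1 peak, against 102 of 518 (19.7%) in all chains of 10 or more. Over all Foxh1-only regions the share was 7.59%. The span of this longest chain held 14 H3K4me1 peaks, 8 regions with Foxh1 and another factor, and 3 bound regions without Foxh1, so it was not a stretch of Foxh1 alone.

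H3K4me1 was more frequent in longer chains, and median strength was lowest in single regions. The share of Foxh1-only regions with H3K4me1 was 4.91% (4.54% to 5.29%) for single regions, 6.62% in chains of 2, 8.92% in chains of 3 to 4, 16.2% in chains of 5 to 9 and 19.7% (16.4% to 23.4%) in chains of 10 or more. Their median strength was 13.2, 13.8, 13.8, 14.0 and 13.8 in the same order. In chains of all bound regions that held Foxh1-only regions and no other kind, the share was 4.11% for single regions, 6.24% for 2, 6.92% for 3 to 4 and 13.7% (11.4% to 16.3%) for 5 or more. One H3K4me1 peak can mark several members of a chain, so members do not count separately.

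The mark also differed by the kind of neighbour, with chains now joined over all 55220 bound regions at the same distance. Of Foxh1-only regions, 8593 had no other bound region within 12500 bases and 4.11% (3.70% to 4.55%) of them overlapped H3K4me1. In 8187 regions linked to further Foxh1-only regions and nothing else the share was 7.22% (6.67% to 7.80%). In 5916 regions whose chain took in Vegt or Otx1 regions but none shared with Foxh1 it was 5.48% (4.91% to 6.09%). In 8986 regions whose chain took in a shared region it was 12.7% (11.98% to 13.4%). Median strength lay between 13.3 and 13.8 in all 4 settings.

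The nearest Vegt or Otx1 peak lay a median of 17066 bases from a Foxh1-only region, with 25th and 75th percentiles of 5567 and 40384 bases. With the stronger 50% of the Vegt and Otx1 lists the median was 33696 bases, so the value depends on the length of those lists. To Vegt alone the median was 19736 bases and to Otx1, whose list is shorter, 80090 bases. Within 1 kb of such a peak were 2132 regions (6.73%), within 200 bases 273 and within 100 bases 67. Beyond 100 kb were 1892 (5.97%), and 417 more lay on scaffolds with no Vegt or Otx1 peak. Distance did not follow strength: the median gap was between 16292 and 17887 bases in all 10 classes. Over the 9 chromosomes the median gap ranged from 14829 to 24706 bases. Overlap with Vegt or Otx1 is what excludes a region, so no distance here could include one.

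H3K4me1 was more frequent at Foxh1-only regions close to another factor. Up to 1 kb away, one H3K4me1 peak can span a Foxh1-only region and the neighbouring peak, so their marks were not told apart. The share was 17.5% (15.9% to 19.2%) up to 1 kb away, 9.42% (8.63% to 10.3%) at 1 to 5 kb, 7.18% (6.67% to 7.71%) at 5 to 20 kb, 6.00% (5.58% to 6.43%) at 20 to 100 kb and 5.02% (4.08% to 6.10%) beyond 100 kb. Median strength was 13.5 to 13.8 in these 5 bins, with no steady rise or fall with distance. A part of strength in the mark was not tested. At the Foxh1 summit the shares were 12.6%, 6.27%, 4.77%, 3.57% and 3.17% in the same order. On all 9 chromosomes the share up to 1 kb, 13.8% to 20.3%, exceeded that beyond 20 kb, 4.997% to 6.78%. Up to 1 kb from another factor the share was 14.6% (12.1% to 17.3%) in the weakest 3 classes and 22.4% (18.8% to 26.4%) in the strongest 3. Beyond 100 kb it was 4.76% (3.21% to 6.77%) in the weakest 3 and 6.22% (4.17% to 8.87%) in the strongest 3.

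**Figure D5:**
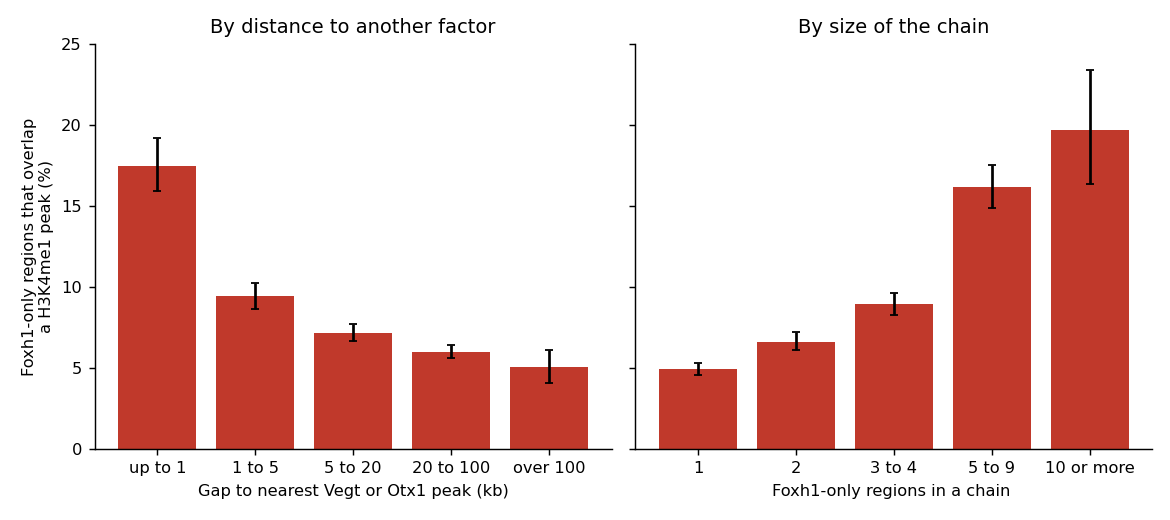
Percent of Foxh1-only regions that overlap a H3K4me1 peak (y axis) by gap to the nearest Vegt or Otx1 peak in kb (left) and by number of Foxh1-only regions in the chain (right), with exact 95% intervals. The bars fall with distance, from 17.5% to 5.02%, and rise with chain size, from 4.91% to 19.7%.

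Which kind of region stood within 1 kb also went with the mark. At this distance a single H3K4me1 peak can cover both regions, so the mark of the Foxh1-only region was not separated from that of its neighbour. Measured between region edges, 561 Foxh1-only regions had a region of all 3 factors as the nearest one with Vegt or Otx1 within 1 kb, and 28.0% of them overlapped H3K4me1. The share was 17.9% of the 536 Foxh1-only regions next to a region with Foxh1 and Vegt. It was 16.6% of the 428 next to one with Foxh1 and Otx1, and 9.61% of the 666 next to one with Vegt only. Within 1 kb, regions of Otx1 only were nearest to 12 Foxh1-only regions, of which none (0) overlapped H3K4me1, and regions of Vegt and Otx1 to 39, with 7.69%.

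The 1 base limit of the rule separated few regions. Just outside it, 30 Foxh1-only regions had a Vegt or Otx1 peak within 50 bases, with a median strength of 13.7, and 2 of them overlapped H3K4me1. Just inside, 7 shared regions overlapped another factor by no more than 50 bases, with a median strength of 14.3, and 2 of them overlapped H3K4me1. At gaps of over 50 and up to 200 bases, 19.8% (14.9% to 25.3%) of 243 Foxh1-only regions overlapped H3K4me1, with a median strength of 13.6. At overlaps of over 50 and up to 200 bases, 12.2% (7.49% to 18.4%) of 156 shared regions did, with a median strength of 12.1. Between 50 and 200 bases the Foxh1-only share was thus not the lower one, and the intervals overlapped. Up to 50 bases it was the lower one, at 6.67% (0.82% to 22.1%) against 28.6% (3.67% to 71.0%). These counts are small and the intervals overlapped there too. The closest Foxh1-only region, chr8:79722101-79722310, had a strength of 15.9 and lay 2 bases from a Vegt peak. The least overlapping shared region, chr2:64646450-64647032, had 14 bases in common between a Foxh1 peak of 13.9-fold and a Vegt peak of 13.3-fold, and it overlapped H3K4me1.

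At the far end, the 3 strongest Foxh1-only regions more than 100 kb from any Vegt or Otx1 peak did not overlap H3K4me1. At that distance 6.22% of regions in the strongest 3 classes did, so this does not set these 3 apart. The strongest of them is the chromosome 5 region given above. The next was chr9:9583604-9584018, with a strength of 47.0 and 234016 bases from Vegt, and it lay 2061 bases from another region with Foxh1. The last was chr10:37159940-37160249, with a strength of 46.0, and its nearest region with Foxh1 was 120532 bases away.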

How the data were processed

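The authors deposited 1 peak list per factor and 1 for H3K4me1, pooled per the peak names. For Foxh1 it is not known whether replicates were pooled. Each peak carries the authors' fold enrichment ratio, −log10 p and a summit position. Bowtie2 2.2.7 was used per the submitters' processing notes; the sources used here name no peak caller, control or genome build. The lowest deposited −log10 p was 27.7 for Foxh1, 14.6 for Vegt, 8.14 for Otx1 and 9.00 for H3K4me1, so the lists differ in stringency.

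Peaks of the 3 factor lists that overlapped by at least 1 base were merged. Strength was the highest Foxh1 fold of a region. Gaps were counted in bases between edges. Named regions were the 5 strongest, the longest chain, both sides of the 1 base limit and the 3 strongest beyond 100 kb from Vegt and Otx1. Merging, gaps and ranking were tested on simulated data. Python 3.11.15, pandas 2.3.3, SciPy 1.17.1 and matplotlib 3.10.9 were used. Members, classes and named regions were chosen with earlier results of these data known. The RNA tables were not used, since their gene models have no coordinates here, and no sequence is shown because no genome of the lists' build was used.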

Additional observations from a re-analysis of the deposited data

How the results depend on the processing

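Pooled lists allow no statement on replicate error. No paired analysis was possible because each factor has 1 pooled list, and no replicate could be left out for the same reason. The lower H3K4me1 share of Foxh1-only than of shared regions kept its direction under all 11 alternatives, between -16.0 and -7.28 percentage points (-14.5 as reported). Of these alternatives, mean strength does not enter the share, so it could not change this difference. The strongest minus the weakest class stayed between 1.30 and 5.67 points (2.76 as reported, from 0.46 to 5.14 between the outer ends of both intervals). These ends reached below 0 at the summit (-0.54), within 1 kb (-0.20) and without regions up to 1 kb from another factor (-0.06). With the stronger 50% of the Foxh1 list there were 13910 Foxh1-only regions, median strength was 18.8, the strongest class was 32.3% Foxh1 only, 48.6% had a Foxh1 neighbour within 12500 bases, and H3K4me1 shares were 8.59% in all, 19.7% up to 1 kb from another factor and 7.75% on the lowest chromosome. With the stronger 50% of the Vegt and Otx1 lists these were 13.95 for strength, 65.1%, 65.7%, 8.94%, 19.4% and 7.83%, and the median gap was 33696 bases. Without Foxh1-only regions up to 1 kb from another factor the strongest class was 39.7% Foxh1 only, 63.1% had a neighbour, the gap was 19214 bases and H3K4me1 6.88%. Over the 9 chromosomes 66.1% had a neighbour and the gap was 16735.5 bases. H3K4me1 at the summit gave 4.95% in all, 12.6% up to 1 kb from another factor and 4.14% on the lowest chromosome; within 1 kb it gave 11.7%, 27.7% and 10.6%, and with the stronger 50% of its list 4.22%, 10.2% and 3.56%. Joining peaks by 50% of the shorter peak or by summits within 200 bases, mean strength, and H3K4me1 read on the strongest Foxh1 peak of a region, which was chosen after the data were seen, left the H3K4me1 shares within their intervals. As each Foxh1-only region is 1 peak, mean strength and the strongest peak could not change the share over all Foxh1-only regions.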

Other observations

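Seen from the mark, 2457 of the 15925 H3K4me1 peaks (15.4%) overlapped a Foxh1-only region, 1918 (12.04%) overlapped a region with Foxh1 and another factor, and 11158 (70.1%) overlapped no bound region. In the strongest class of 10 by H3K4me1 fold, 16.7% overlapped a Foxh1-only region and 19.9% a shared one; in the weakest, 14.2% and 10.2%. Over the 10 classes the share on a Foxh1-only region lay between 13.1% and 19.4%.

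Peaks of the other lists were also denser near Foxh1-only summits than 40 to 50 kb away. At 0.5 to 1 kb the density over that distant level was 3.51-fold for Otx1, 2.72-fold for H3K4me1 and 1.69-fold for Vegt around Foxh1-only summits, and 5.74-fold, 5.07-fold and 3.70-fold around shared ones. The rule sorted regions by overlap with Vegt and Otx1 peaks. The difference between Foxh1-only and shared summits in Vegt and Otx1 density is therefore not independent of the rule, and no conclusion is drawn from it.

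Foxh1-only regions, with a median Foxh1 strength of 13.5 and 7.59% on H3K4me1, stood below both kinds of shared region when these were divided by the other factor. Shared regions whose other factor came only from the weaker 50% of the Vegt or Otx1 list numbered 4021, with a median Foxh1 strength of 19.3, and 19.7% of them overlapped H3K4me1. Those with a peak from the stronger 50% numbered 3477, with a median strength of 23.4, and 25.0% overlapped H3K4me1. Median region width rose in the same order, from 288 bases in Foxh1-only regions to 445 bases with the weaker 50% and 522 bases with the stronger 50%. A part of width in these shares was not tested.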
